A study of Mus musculus with 4 samples.

Results

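Prostaglandins are local lipid signals, and 8 genes that make them or sense them were followed here through single cells of mouse skeletal muscle: the cyclooxygenases Ptgs1 and Ptgs2, the terminal synthases Ptges, Ptgis and Ptgds, and the receptors Ptger2, Ptger4 and Ptgfr. They were chosen by symbol as members of one pathway, and all 8 were found among the 32285 mouse genes counted. The mice were a model of Duchenne muscular dystrophy, the disease caused by loss of the muscle protein dystrophin. They received either vehicle or LNP-CRISPR, lipid nanoparticles carrying the Cas9 gene editing system. Cells were sequenced from a bulk preparation of muscle or after a satellite cell isolation kit, which aims at the stem cells of muscle. Treatment and isolation together give 4 groups of 1 library each, named below by both, as in vehicle bulk or LNP-CRISPR kit. Strain, Dmd allele, age, dose, time after injection and the number of animals behind a library are not given in the sources used here. No difference between groups could therefore be set against a spread between replicates, and no test was made.

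Prostaglandin synthesis starts when phospholipases free arachidonic acid from membranes. Cyclooxygenases turn it into the shared intermediate prostaglandin H2: Ptgs1 (COX-1) is present in many resting cells, and Ptgs2 (COX-2) is the form induced by injury and inflammation. Terminal synthases then fix the product, with Ptges making prostaglandin E2, Ptgis prostacyclin and Ptgds prostaglandin D2. Ptger2 and Ptger4 are prostaglandin E2 receptors that raise cyclic AMP, and Ptgfr is the prostaglandin F2 alpha receptor. In muscle, prostaglandins are known for their part in inflammation, in the growth of satellite cells and in the fusion of myoblasts.

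On GRCm38 (GENCODE M21), Ptgs2 lies on chromosome 1 from 150100031 to 150108227, and Ptgs1 on chromosome 2 from 36230426 to 36252272. Ptges spans 30889471 to 30929863, Ptgis 167191805 to 167240604 and Ptgds 25466709 to 25470046, all 3 on the minus strand of chromosome 2. Ptger2 is on chromosome 14 (44988195 to 45003820), Ptger4 on chromosome 15 (5206661 to 5244187, minus strand) and Ptgfr on chromosome 3 (151796502 to 151837630, minus strand). The stretches upstream of 4 starts are shown to set the 2 cyclooxygenases side by side, together with the synthase found chiefly in stromal cells (Ptges) and the one found chiefly in muscle cells (Ptgds). They come from RefSeq on GRCm38.p6, which held an entry for 7 of the 8 genes, all but Ptgis, and are written 5′ to 3′ on the strand of the gene. Capitals mark every match, on either strand, to 1 of 6 short motifs. These were TATAAA (the TATA box), CAGCTG with CACGTG (forms of the E-box), ACGTCA (the core of the cyclic AMP response element), TTGCGCAA (bound by C/EBP factors) and finally GGGCGG (bound by Sp1).
Ptgs1, chr2:36230176-36230425, plus strand: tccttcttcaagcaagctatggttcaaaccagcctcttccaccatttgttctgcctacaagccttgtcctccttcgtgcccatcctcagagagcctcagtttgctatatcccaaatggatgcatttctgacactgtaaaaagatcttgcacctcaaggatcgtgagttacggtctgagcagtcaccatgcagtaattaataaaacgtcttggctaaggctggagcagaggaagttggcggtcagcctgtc
Ptgs2, chr1:150099781-150100030, plus strand: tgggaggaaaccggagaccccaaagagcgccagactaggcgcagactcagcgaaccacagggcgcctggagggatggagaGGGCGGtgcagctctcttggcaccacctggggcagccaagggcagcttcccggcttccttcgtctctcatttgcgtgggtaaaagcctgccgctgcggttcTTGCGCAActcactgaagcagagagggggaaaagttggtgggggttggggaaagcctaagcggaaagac
Ptges, chr2:30903298-30903547, minus strand: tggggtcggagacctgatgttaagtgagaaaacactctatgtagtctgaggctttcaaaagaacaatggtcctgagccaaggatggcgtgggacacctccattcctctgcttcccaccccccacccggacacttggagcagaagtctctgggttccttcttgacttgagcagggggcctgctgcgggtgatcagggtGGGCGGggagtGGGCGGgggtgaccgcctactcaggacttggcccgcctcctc
Ptgds, chr2:25469843-25469999, minus strand: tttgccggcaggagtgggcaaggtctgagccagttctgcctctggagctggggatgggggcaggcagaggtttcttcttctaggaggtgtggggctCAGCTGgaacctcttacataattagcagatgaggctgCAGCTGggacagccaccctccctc

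The Ptgs2 window held the palindrome TTGCGCAA at bases -69 to -62 counted from the start, and 1 GGGCGG at -170 to -165. Among 27025 promoters of the same 250-base length, TTGCGCAA was found in 46 (0.17%) and GGGCGG in 32.9%. Upstream of Ptges, GGGCGG occurred at -53 to -48 and at -42 to -37. Ptgds had the E-box CAGCTG, a form read by myogenic factors, at -154 to -149 and at -117 to -112, a motif present in 12.8% of promoters. In Ptgs1 none of the 6 motifs was found, which says only that these letters are not in this window. The 93 bases nearest the RefSeq start of Ptgds are not shown, because GENCODE annotates them as untranslated region of a longer transcript. Part of the Ptgs2 window is annotated as exon of the antisense transcript Ptgs2os. The Ptges and Ptgds windows, upstream of their RefSeq starts, lie inside the longer GENCODE models of those genes.

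The libraries held 1305 to 2207 barcodes and 25921795 to 40666916 UMIs, a UMI being 1 counted RNA molecule. Filtering kept 5651 of 6512 barcodes, with a median depth of 22270 UMIs per cell in vehicle bulk, 16042 in LNP-CRISPR bulk, 8627 in vehicle kit and 10312 in LNP-CRISPR kit. No pair of libraries shared more than 3 barcodes. Clustering without the pathway genes gave 26 clusters, named from marker genes and called "-like" for that reason. The 2 bulk libraries were led by FAP-like cells (fibro-adipogenic progenitors, the matrix-making stromal cells of muscle), 671 and 470 in number. Satellite- or myogenic-like cells were 38% and 31.6% of the kit libraries, so the kit cells were not satellite cells alone. Neutrophil-like cells numbered 33 in vehicle bulk and 155 in LNP-CRISPR bulk. Levels below are UMIs summed over the cells of a class per 1000000 nuclear-encoded UMIs, written CPM. The 95% intervals beside them are exact Poisson limits, which cover counting error only. UMIs were counted from the 3' end, so levels are compared between cells and not between genes.

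Ptgs2 was the member with the most UMIs, 45463 over all barcodes, and its RNA was found almost wholly in cells of the bulk libraries. In FAP-like cells it stood at 908 CPM (896–921) with vehicle and 1292 CPM (1273–1310) with LNP-CRISPR, a ratio of 1.42 (1.39–1.45). Neutrophil-like cells, the first leukocytes to enter injured tissue, held 900 CPM (703–1135) and 1317 CPM (1209–1433). In each bulk library these neighbours at the top of the order had overlapping intervals. Macrophage- or monocyte-like cells came next at 326 CPM (306–347) and 623 CPM (594–652), then dendritic-like cells, which present antigen, at 231 CPM (204–262) and 180 CPM (153–210), and tendon cells (tenocyte-like) at 121 CPM (107–137) and 170 CPM (154–187). The dendritic-like and tenocyte-like intervals overlapped in LNP-CRISPR bulk and not in vehicle bulk.

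Muscle cells were low in Ptgs2 in every library. Bulk satellite- or myogenic-like cells gave 6 UMIs in 43 vehicle cells (2.77 CPM) and 8 UMIs in 36 LNP-CRISPR cells (5.50 CPM), with 11.6% and 19.4% of cells holding a UMI. Bulk pericyte- or smooth muscle-like cells were similarly low, at 2.40 CPM and 9.14 CPM from 1 and 4 UMIs. Of 534 and 600 satellite- or myogenic-like kit cells, Ptgs2 gave 0 UMIs with vehicle and 3 UMIs with LNP-CRISPR. Barcodes with contractile-fibre transcripts (fibre-like) gave 0 UMIs in both kit libraries (279 and 290 barcodes), which allows a share of barcodes with a UMI of up to 1.08% and 1.03%. Glial-like kit cells gave 1 and 0 UMIs. In LNP-CRISPR bulk, by contrast, 27.3% of 22 glial-like cells had a Ptgs2 UMI, each with 1, and their level was 38.7 CPM (14.2–84.2). After thinning every cell to 1000 UMIs that share was 0, while it was 42.1% in FAP-like, 66.9% in neutrophil-like and 23.8% in macrophage- or monocyte-like cells of the same library. T or NK-like lymphocytes had 39.1 CPM (17.9–74.1) from 9 UMIs in vehicle bulk and 106 CPM (77.8–141) from 47 UMIs in LNP-CRISPR bulk, with thinned shares of 0 and 4.0%. Their ratio was 2.71 (1.31–6.29) from 33 and 50 cells, and 1 vehicle cell held 6 of the 9 UMIs. Free RNA was not removed, and a thinned share cannot tell it from expression. Whether the low glial-like and T or NK-like values are expression was not tested.

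**Figure D1:**
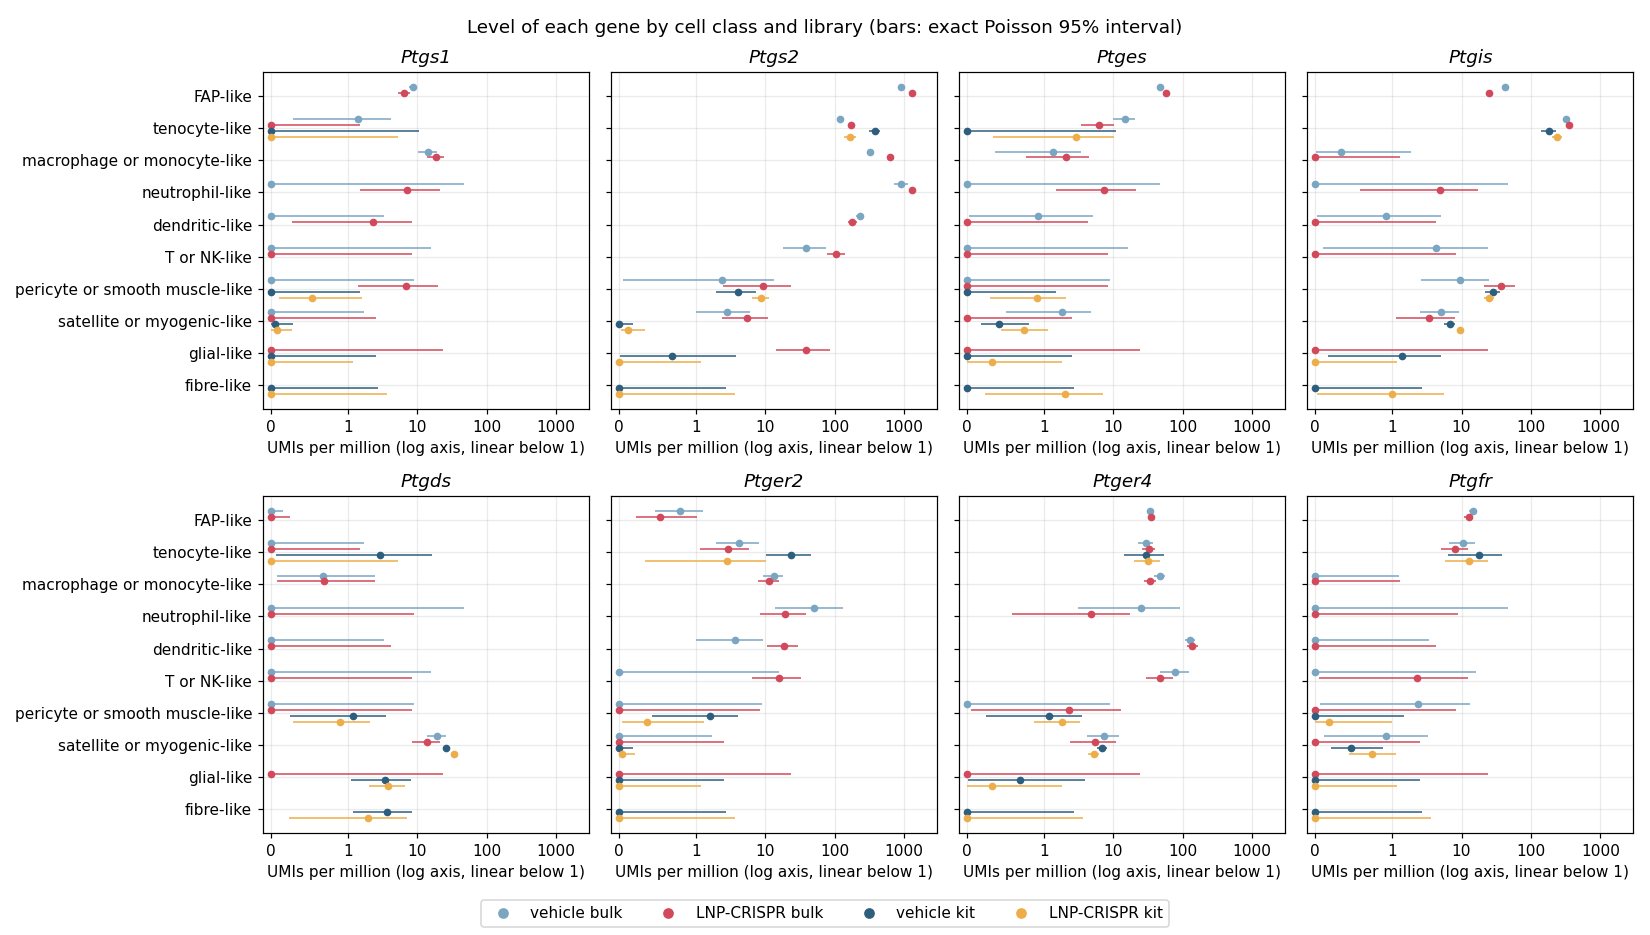
Level of each of the 8 genes (UMIs per 1000000 nuclear-encoded UMIs, log axis that is linear below 1) in 10 cell classes of the 4 libraries; points are classes with at least 20 cells and bars are exact Poisson 95% intervals. Ptgs2 is highest in FAP-like and neutrophil-like cells (900 to 1317), Ptgis in tenocyte-like cells (182 to 350) and Ptgds in satellite- or myogenic-like cells (13.8 to 33.9).

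Within a class, Ptgs2 was spread unevenly over cells. The median FAP-like cell held 9 UMIs with vehicle and 11 with LNP-CRISPR, and the highest held 414 and 654. At least 1 UMI was seen in 77.5% and 80.9% of FAP-like cells, or in 38.7% and 42.1% after thinning. FAP-like cells fell into several clusters, and the largest was cluster 4 with vehicle (237 cells, led by Angptl1, Postn and Cilp) and cluster 3 with LNP-CRISPR (187 cells, led by Cxcl5, Ptx3 and Cxcl9). Cluster 3 had the highest level in both libraries, 1435 CPM (1409–1462) and 1822 CPM (1788–1855), a ratio of 1.27 (1.24–1.30). In cluster 4 the values were 518 CPM (501–534) and 678 CPM (654–702), a ratio of 1.31 (1.25–1.37). Of clusters 3, 4, 10 and 21, the widest gap was in cluster 21, cycling cells with Mki67 and Top2a, at 634 CPM (607–660) and 1399 CPM (1355–1443), a ratio of 2.21 (2.09–2.33). The highest cell of the class, with 654 UMIs, belonged to cluster 21. Only in cluster 10, led by Gdf10 and Myoc, was the LNP-CRISPR value the lower of the pair among these 4 clusters, at 863 CPM (832–896) and 766 CPM (720–814). The FAP-like cluster 23, led by Apod, was left out of these comparisons because it had 19 vehicle cells, under the minimum of 20. Its 35 LNP-CRISPR cells held 674 CPM of Ptgs2 (548–821).

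Neutrophil markers were read in the same cells. In FAP-like cells 6 of 8 markers were higher with LNP-CRISPR, and their summed level was 34.2 CPM with vehicle and 124 CPM with LNP-CRISPR, with Ly6g at 0 in both. Dendritic-like cells, with a Ptgs2 ratio of 0.778, had sums of 35.8 and 202 CPM. Of all measured genes, 5387 of 13714 were higher in FAP-like, 4435 of 9691 in bulk tenocyte-like and 4217 of 9416 in macrophage- or monocyte-like cells. In dendritic-like cells it was 3065 of 6843. The part of neutrophil RNA in the Ptgs2 values was not tested. Neutrophil-like cells themselves held 114124 and 135110 CPM of the same markers. Among FAP-like cells with no UMI of S100a8 or S100a9, the most abundant of these markers, Ptgs2 was 938 CPM (475 cells) and 1146 CPM (93 cells), a ratio of 1.22 (1.17–1.27). These were 475 of 671 vehicle and 93 of 470 LNP-CRISPR cells. A shallow cell is more likely to hold no such UMI, and depth and clusters of the kept cells were not compared. The same limit applies to this choice of cells in the other classes.

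In macrophage- or monocyte-like cells, which clear debris and direct repair, the ratio of Ptgs2 was 1.91 (1.77–2.07), and it was similar in the clusters of the class. Cluster 7, with the complement genes C1qa, C1qb and C1qc, had 319 CPM (296–344) with vehicle and 605 CPM (572–639) with LNP-CRISPR. Cluster 16, with the monocyte genes Ly6c2, Chil3 and Plac8, had 344 CPM (305–386) and 671 CPM (616–731). Single cells weighed here: the highest held 180 of 964 UMIs with vehicle and 217 of 1800 with LNP-CRISPR, and without them the levels were 267 and 553 CPM. Neutrophil markers summed to 259 CPM and 366 CPM in this class (5 of 8 higher, Ly6g at 0 in both). Cells with no S100a8 or S100a9 UMI had 273 CPM (151 cells) and 608 CPM (52 cells), a ratio of 2.22 (1.95–2.54). For neutrophil-like cells the ratio was 1.46 (1.14–1.90), from 33 cells with a median depth of 1637 UMIs and 155 cells with 2573 UMIs. In dendritic-like cells the ratio was 0.778 (0.633–0.953), and its direction is not settled. It was 0.965 (0.632–1.43) among the 35 and 13 cells without S100a8 and S100a9, 1.09 with the pathway genes kept in the clustering and 0.527 with cells weighted equally.

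In tenocyte-like cells Ptgs2 could be compared in both isolations, with a UMI in 41 and 66 of the bulk cells and in 11 and 22 of the kit cells. With 81 and 109 bulk cells the ratio was 1.41 (1.20–1.65), and with 24 and 37 kit cells it was 0.440 (0.340–0.570), from 378 CPM (316–449) with vehicle and 167 CPM (138–200) with LNP-CRISPR. In the vehicle kit library 1 cell held 58 of the 129 UMIs, and without it the level was 233 CPM. Neutrophil markers in the bulk tenocyte-like cells summed to 15.6 CPM and 85.5 CPM (6 of 8 higher; Ly6g at 0 in both), and cells without S100a8 and S100a9 gave 103 and 119 CPM, a ratio of 1.16 (0.855–1.55).

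Ptgs1, the cyclooxygenase of resting cells, was sparse, with 435 UMIs in all. Its highest level was in macrophage- or monocyte-like cells, 14.2 CPM (10.2–19.2) with vehicle and 18.7 CPM (14–24.4) with LNP-CRISPR, a ratio of 1.32 (0.862–2.02) whose interval includes 1 and which was 2.85 at 1000 UMIs per cell. Nearly all of it lay in the C1q cluster 7, with 40 of 42 and 53 of 54 UMIs. FAP-like cells had 8.82 CPM (7.63–10.1) and 6.53 CPM (5.30–7.96), a ratio of 0.741 (0.575–0.948). At 1000 UMIs per cell that ratio was 1.24, so its direction is not settled. Of clusters 3, 4, 10 and 21, cluster 10 had the highest levels, 24 and 21.6 CPM (0.903, 0.568–1.40), and cluster 4 had 4.16 and 1.98 CPM. Cluster 10 was 151 of the 671 vehicle and 59 of the 470 LNP-CRISPR FAP-like cells. The kit libraries held 1 and 7 Ptgs1 UMIs in all cells kept.

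Ptges, which turns prostaglandin H2 into prostaglandin E2, was found chiefly in FAP-like cells. These held 1070 of the 1110 Ptges UMIs in kept vehicle bulk cells and 855 of 879 in LNP-CRISPR bulk, at 47.6 CPM (44.8–50.6) and 57.0 CPM (53.2–60.9). The ratio was 1.20 (1.09–1.31), or 1.88 at 1000 UMIs per cell. Cluster 3 gave most of the gap: there the level was 41.4 CPM with vehicle and 72.6 CPM with LNP-CRISPR (1.75, 1.52–2.03). Without cluster 3 the class stood at 51.1 and 45.9 CPM, a ratio of 0.899 (0.794–1.02). Cluster 10 had 70.3 and 80.6 CPM, and cluster 4 had 48.2 and 39.3 CPM. The 35 LNP-CRISPR cells of cluster 23 held 95.4 CPM (52.1–160) from 14 UMIs, and at finer clustering (Leiden resolution 2.0) the Apod cells of the vehicle library (20 cells) held 136 CPM (98.4–183) from 43 UMIs. Bulk tenocyte-like cells gave 31 and 15 UMIs, 14.6 CPM (9.94–20.8) and 6.14 CPM (3.44–10.1), a ratio of 0.419 (0.210–0.801). With each cell weighted equally that ratio was 1.05, and at 1000 UMIs per cell it was 1.5, so its direction is not settled. Macrophage- or monocyte-like cells, high in Ptgs2, had 4 and 6 Ptges UMIs (1.35 and 2.08 CPM).

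Ptgis, prostacyclin synthase, had another distribution. Tenocyte-like cells were highest in all 4 libraries: 315 CPM (291–340) in vehicle bulk, 350 CPM (327–374) in LNP-CRISPR bulk, 182 CPM (139–233) in vehicle kit and 239 CPM (204–278) in LNP-CRISPR kit. The bulk ratio was 1.11 (1.0–1.23) and the kit ratio 1.32 (0.978–1.79). A Ptgis UMI was present in 88.9% and 78.9% of bulk tenocyte-like cells. Cluster 18, with the cartilage and tendon matrix genes Chad, Fmod and Comp, held 428 and 472 CPM in bulk, and cluster 15, with Tnmd and Col22a1, held 171 and 203 CPM. Kit pericyte- or smooth muscle-like cells, the mural cells of vessels, had 28.1 CPM (21.9–35.5) and 25.2 CPM (21.2–29.7), a ratio of 0.895 (0.667–1.21). In bulk the class gave 9.61 and 36.6 CPM, a ratio of 3.81 (1.23–15.7), from 4 and 16 UMIs in 27 and 27 cells. A single LNP-CRISPR bulk cell held 7 of those 16 UMIs. The difference between the isolations was not tested.

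In FAP-like cells Ptgis was lower with LNP-CRISPR, at 42.7 CPM (40.0–45.4) with vehicle and 24.9 CPM (22.5–27.6) with LNP-CRISPR, a ratio of 0.584 (0.517–0.659), or 0.359 at 1000 UMIs per cell. This gap too sat in cluster 3, with 82.3 CPM (76.2–88.9) from 658 UMIs and 27.2 CPM (23.3–31.6) from 169 UMIs (0.330, 0.277–0.392). Clusters 4, 10 and 21 had ratios of 1.09 (0.808–1.46), 0.800 (0.331–1.75) and 0.958 (0.747–1.23), and the class without cluster 3 gave 1.12 (0.936–1.35). At finer clustering Ptgis was highest with vehicle in 2 FAP-like clusters, numbered 22 and 10 there, at 127 and 67.1 CPM. With LNP-CRISPR these held 64.4 and 27.8 CPM. Their cells numbered 73 and 123 with vehicle and 41 and 85 with LNP-CRISPR. Cluster 27 there, the cycling cells, came next with vehicle and was not clearly lower, at 44.2 CPM (37.5–51.7) and 42.3 CPM (35.0–50.7). In clusters 22 and 10 Ptgs2 was 1435 and 1310 CPM with vehicle and 1599 and 1727 CPM with LNP-CRISPR. Ptges was 38.9 and 42.6 CPM there with vehicle and 80.4 and 38.2 CPM with LNP-CRISPR, so it was higher in the first of them only. The FAP-like cluster numbered 14 in the finer clustering was led by Cxcl9, Iigp1 and Gbp2 (79 and 91 cells). Its Ptges was 45.7 CPM (37.2–55.6) with vehicle and 98.7 CPM (86.8–112) with LNP-CRISPR. Ptgis was low in it and not lower with LNP-CRISPR, at 11.4 CPM (7.40–16.9) and 17.3 CPM (12.5–23.2). In cluster 3 as a whole, then, Ptgs2 and Ptges were higher and Ptgis lower in the LNP-CRISPR library, while in cluster 4 Ptgs2 was higher and Ptges lower. These are sums over a cluster, and whether the same cells differed in Ptges and in Ptgis was not tested.

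**Figure D2:**
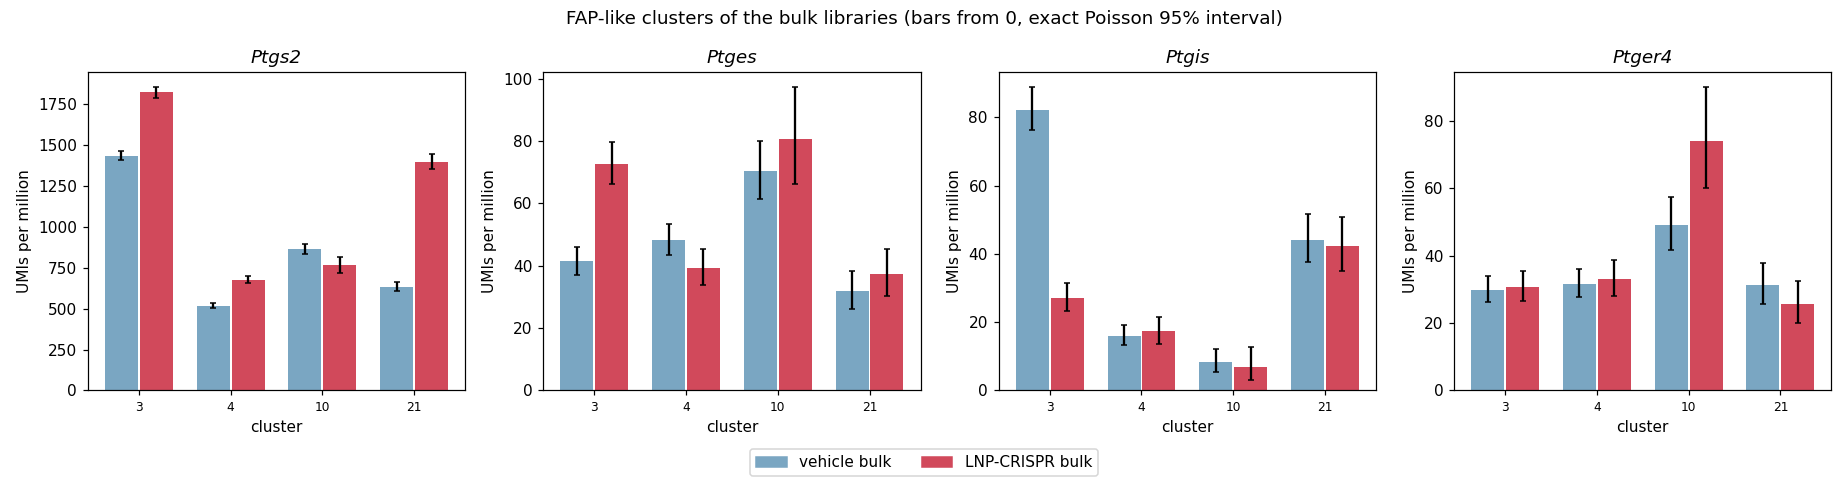
Levels of Ptgs2, Ptges, Ptgis and Ptger4 (UMIs per 1000000 nuclear-encoded UMIs, axes from 0) in FAP-like clusters 3, 4, 10 and 21 of the vehicle and LNP-CRISPR bulk libraries, with exact Poisson 95% intervals. In cluster 3 Ptges is higher (41.4 and 72.6) and Ptgis lower (82.3 and 27.2) with LNP-CRISPR, and in cluster 21 Ptgs2 shows its widest gap (634 and 1399).

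Whether single cells carried these RNAs together was counted after thinning FAP-like cells to 10000 UMIs, which left 607 vehicle and 391 LNP-CRISPR cells. Ptgis was detected in 21.1% (17.3–25.3) of vehicle cells with Ptgs2 and in 8.89% (5.17–14) of those without. The LNP-CRISPR values were 11.8% (8.41–16) and 4.65% (1.28–11.5), with overlapping intervals. All FAP-like clusters are pooled in these shares, and clusters differed in both genes. Before thinning, 93.0% of vehicle cells in cluster 3 had Ptgs2 and 42.8% had Ptgis, beside 66.2% and 14.8% in cluster 4. Whether the genes go together within a cluster was not tested. Ptges was found in 29.7% (25.4–34.3) of vehicle cells with Ptgs2 and 38.3% (31.2–45.9) of those without, and in 43.3% (37.6–49.0) and 38.4% (28.1–49.5) with LNP-CRISPR. Ptger4 was found in 21.3% and 18.9% of vehicle cells with and without Ptgs2, and in 24.3% and 25.6% of LNP-CRISPR cells.

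Ptgds, which makes prostaglandin D2, was a gene of the myogenic cells. Satellite- or myogenic-like cells held 501 of the 517 Ptgds UMIs in kept vehicle kit cells and 874 of 913 in LNP-CRISPR kit. Their level was 25.8 CPM (23.6–28.1) and 33.9 CPM (31.7–36.2), and the bulk cells of the class had 19.4 CPM (14–26.2) and 13.8 CPM (8.40–21.2). FAP-like cells gave 0 UMIs in both bulk libraries, which limits the share of cells with a detected UMI to 0.447% and 0.638% and says nothing of RNA below detection. Glial-like and fibre-like kit classes had 1.99 to 3.86 CPM from 2 to 12 UMIs each.

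Across the myogenic clusters Ptgds was lowest where satellite cell genes led and highest where genes of newly fused fibres led. In cluster 2, with Pax7 and Myf5, the markers of satellite cells, it was 5.43 CPM (3.04–8.96) with vehicle and 4.96 CPM (2.78–8.19) with LNP-CRISPR. The cycling clusters 8 and 12, with histone genes and Cenpf, had 20.6 and 23.2 CPM with vehicle and 15.5 and 15.2 CPM with LNP-CRISPR. Cluster 22, with Myog and Mymk, had 33.9 and 33.4 CPM, and cluster 14, with Esm1 and Chrna1, had 28.9 CPM (22.7–36.3) and 45.4 CPM (39.9–51.3). The highest level was in cluster 24, with embryonic myosin Myh3, Mymk and Mymx, at 150 CPM (135–166) in its 30 LNP-CRISPR kit cells, of which 90.0% had a UMI. Its 15 vehicle kit cells are too few for a level under the minimum of 20.

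The class ratio of Ptgds in the kit libraries, 1.32 (1.18–1.47), turned on that cluster. Without cluster 24 the levels were 21 CPM from 519 cells and 21.8 CPM from 570 cells, a ratio of 1.04 (0.907–1.19). For Ptgis in the same cells, cluster 24 turned the direction: 6.74 CPM (5.63–7.99) and 9.66 CPM (8.5–10.9) gave a ratio of 1.43 (1.16–1.79), and without the cluster 5.70 and 3.13 CPM gave 0.549 (0.402–0.748). Cluster 24 alone held 176 of the 249 Ptgis UMIs of this class in LNP-CRISPR kit, a level of 72.0 CPM (61.8–83.5). Depth differed between the clusters, with median UMIs per cell of 12917 in cluster 2 and 89545 in cluster 24.

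**Figure D3:**
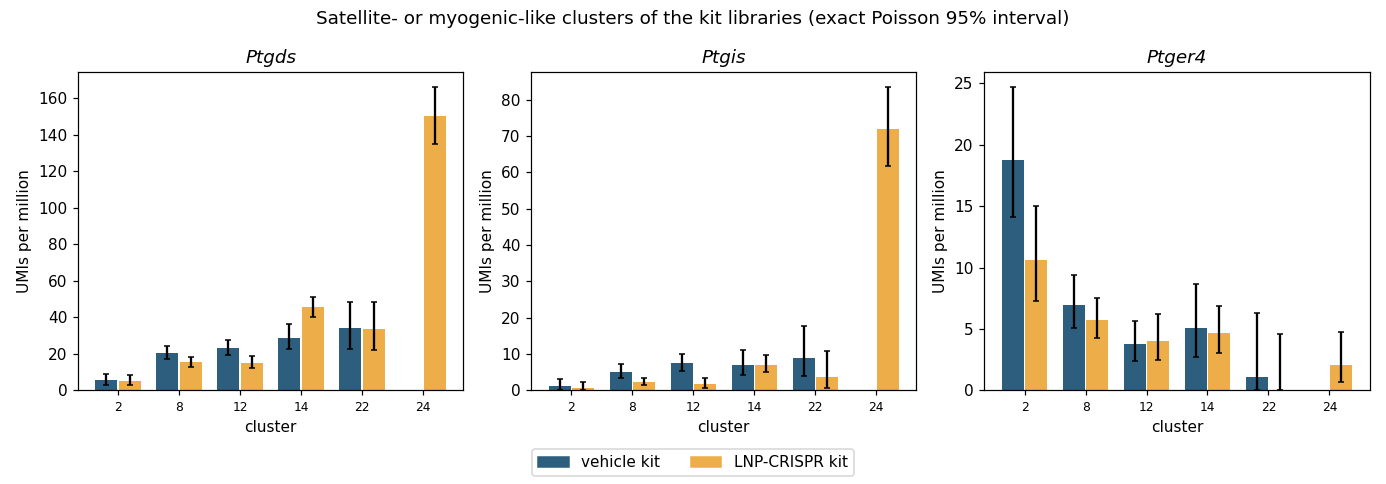
Levels of Ptgds, Ptgis and Ptger4 (UMIs per 1000000 nuclear-encoded UMIs, axes from 0) in 6 satellite- or myogenic-like clusters of the vehicle and LNP-CRISPR kit libraries, with exact Poisson 95% intervals; no bar is drawn for the 15 vehicle cells of cluster 24. Ptgds and Ptgis are highest in cluster 24 (150 and 72.0) and Ptger4 in cluster 2 (18.8 and 10.6).

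Of the receptors, Ptger4, which signals prostaglandin E2 through cyclic AMP, was the most widely found. Dendritic-like cells were highest at 126 CPM (106–149) with vehicle and 136 CPM (113–163) with LNP-CRISPR, a ratio of 1.08 (0.839–1.39). T or NK-like cells followed at 78.1 CPM (46.3–123) and 47.3 CPM (29.3–72.3) from 18 and 21 UMIs. Macrophage- or monocyte-like cells had 46.4 CPM (38.9–54.8) and 33.9 CPM (27.5–41.3), a ratio of 0.732 (0.559–0.955). The FAP-like level was 33.5 CPM (31.1–36) and 34.6 CPM (31.7–37.7), a ratio of 1.03 (0.922–1.16). Tenocyte-like cells lay between 29.3 and 32.3 CPM in all 4 libraries, with overlapping intervals. The bulk ratio was 1.10 (0.782–1.57), or 1.82 with cells weighted equally and 1.88 at 1000 UMIs per cell. In bulk cluster 18 the values were 7.60 and 30.7 CPM (9 and 41 UMIs) and in bulk cluster 15 they were 56.8 and 34.3 CPM.

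Satellite- or myogenic-like kit cells had 6.84 CPM (5.73–8.10) and 5.20 CPM (4.36–6.16) of Ptger4, a ratio of 0.761 (0.594–0.974). Among the clusters the receptor was highest where Ptgds was lowest. The Pax7 cluster 2 had 18.8 CPM (14.1–24.7) with vehicle and 10.6 CPM (7.24–15) with LNP-CRISPR, a ratio of 0.562 (0.350–0.890). The cycling clusters 8 and 12 had 3.79 to 6.98 CPM, and the Myh3 cluster 24 had 2.05 CPM from 5 UMIs in LNP-CRISPR kit.

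Ptger2, the other cyclic AMP-coupled receptor for prostaglandin E2, had 173 UMIs in all. Macrophage- or monocyte-like cells gave 39 and 33 of them, at 13.2 CPM (9.38–18) and 11.4 CPM (7.86–16). Dendritic-like cells gave 4 UMIs with vehicle (3.67 CPM) and 16 with LNP-CRISPR (18.4 CPM), a ratio of 5.02 (1.62–20.7). A single LNP-CRISPR cell held 7 of those 16, and leaving out the top cell of each library gave 3.76. Keeping the pathway genes in the clustering gave 2.09. Markers of other cells were also higher in the LNP-CRISPR dendritic-like cells: neutrophil markers summed to 35.8 and 202 CPM (6 of 8 higher, Ly6g at 0 in both) and tenocyte markers to 24.8 and 133 CPM (6 of 8 higher). Their part in the Ptger2 values was not tested. Neutrophil-like cells had the highest Ptger2 level in both bulk libraries, 50.7 CPM (13.8–130) and 19.3 CPM (8.35–38.1) from 4 and 8 UMIs, with intervals that overlap those of the next class. Ptgfr, which binds prostaglandin F2 alpha, was a receptor of stromal cells. FAP-like cells had 14.4 CPM (12.9–16) and 12.8 CPM (11.0–14.7), a ratio of 0.889 (0.740–1.07), and tenocyte-like cells 8.18 to 17.6 CPM over the 4 libraries. Cluster 10 had 31.7 and 20.9 CPM. The Apod-led FAP-like cells were higher on few UMIs, at 54.5 CPM (23.5–107) from 8 UMIs in LNP-CRISPR cluster 23 and 53.8 CPM (31.3–86.1) from 17 UMIs in the 20 vehicle cells of the finer clustering. Macrophage- or monocyte-like cells gave 0 Ptgfr UMIs in both bulk libraries, which limits the share of cells with a detected UMI to 1.42% and 1.57%.

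Members at least 2-fold apart between the treatments were counted in each class, with the shares of all genes beside them. At most 7 members were measured in a class, too few to say whether they differ from all genes. In bulk FAP-like cells 0 of 7 members with at least 20 UMIs over both libraries did, where 1.67% of all such genes were higher and 2.32% lower by that fold. Bulk tenocyte-like cells had 1 of 5 lower (Ptges), beside 2.18% of genes higher and 2.66% lower. In macrophage- or monocyte-like cells it was 0 of 4, beside 1.76% and 2.04%, with Ptgs2 at 1.91 just inside the limit. Dendritic-like cells had 1 of 3 higher (Ptger2), beside 3.95% and 4.19%. In the kit libraries, satellite- or myogenic-like cells had 0 of 5 (1.21% and 1.43%). Pericyte- or smooth muscle-like cells had 1 of 2 higher (1.69% and 3.09%), Ptgs2 at 4.02 and 8.69 CPM from 10 and 48 UMIs, a ratio of 2.16 (1.08–4.80). The Ptgs2 ratio in pericyte- or smooth muscle-like cells turned to 0.428 with cells weighted equally and to 0.466 after thinning. Single cells held 7 of the 10 and 20 of the 48 UMIs. No member reached 20 UMIs in fibre-like or glial-like kit cells, where 2.51% of all genes in glial-like cells were higher and 1.0% lower. The median log2 ratio of the measured members was -0.17 in FAP-like and 0.52 in satellite- or myogenic-like cells, beside -0.05 and -0.02 for all genes. The 0.52 is the value of Ptgis, the middle of 5 members, and the Ptgis ratio was 0.549 without cluster 24. The higher values in those cells, of Ptges (8 and 19 UMIs) and Ptgfr (9 and 19 UMIs), have intervals that include a ratio of 1. This median is therefore not read as a rise of the pathway.

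**Figure D4:**
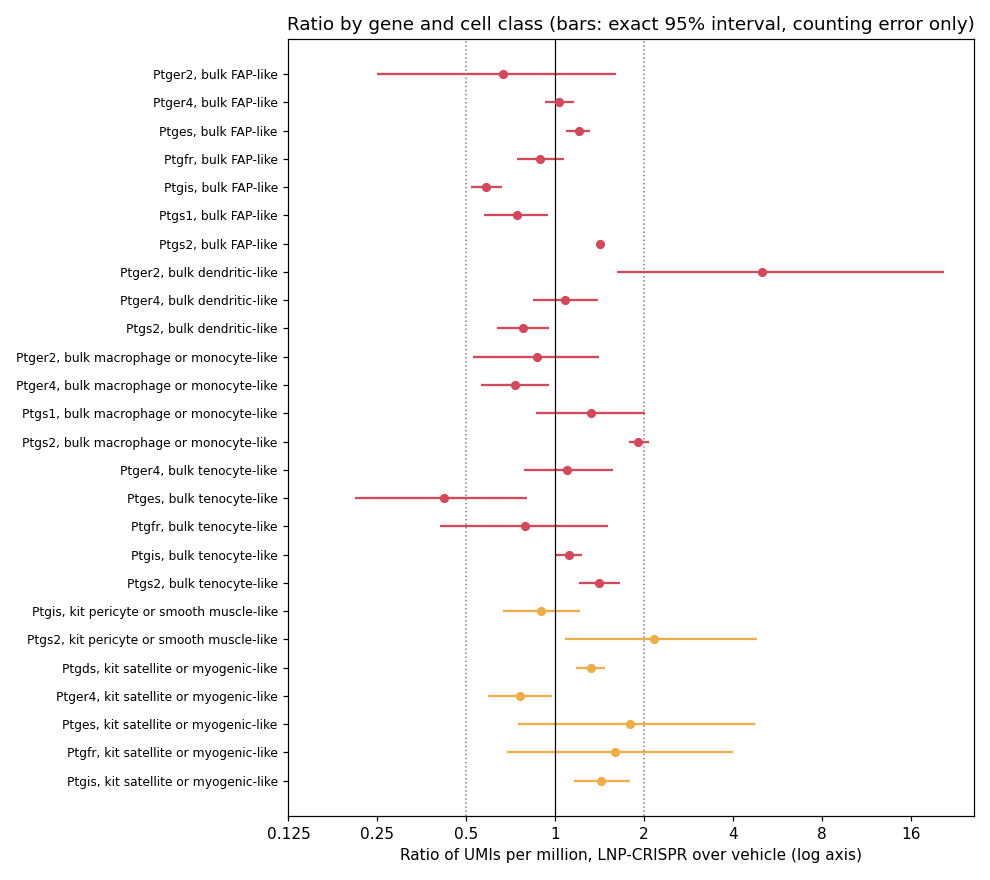
Ratio of LNP-CRISPR over vehicle (log axis) for the 26 pairs of gene and cell class with at least 20 UMIs over both libraries and at least 50 cells in each; bars are exact 95% intervals that cover counting error only, dotted lines mark 2-fold, red is bulk and yellow is kit. Ptger2 in dendritic-like cells (5.02) and Ptgs2 in pericyte- or smooth muscle-like cells (2.16) lie above the upper line and Ptges in tenocyte-like cells (0.419) lies below the lower one.

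The rest of the pathway was read from lists of genes around the members. For arachidonate release, 5 of 6 genes were measured in FAP-like cells, with 0 at least 2-fold higher and 1 lower. That gene was Pla2g2d, a secreted phospholipase, at a ratio of 0.499 from 28 UMIs in total. The cytosolic phospholipase Pla2g4a had 49.8 and 50.3 CPM there (1.01, 0.919–1.11), and the median log2 ratio of the list was -0.22 beside -0.05 for all genes. In tenocyte-like cells the secreted phospholipase Pla2g5 was 23.1 and 8.18 CPM (0.354, 0.199–0.606), the only 1 of 5 measured genes past 2-fold. Other prostanoid synthases had 0 genes past 2-fold in the 8 classes compared. The most abundant of them, Ptges3, was 270 and 281 CPM in FAP-like cells, where 5 of 7 were measured. In macrophage- or monocyte-like cells 7 of 7 were measured, among them Hpgds, the haematopoietic prostaglandin D2 synthase, at 112 and 79.6 CPM (0.713, 0.600–0.846), and Tbxas1, thromboxane synthase, at 68.3 and 75.8 CPM (1.11, 0.912–1.35).

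Of the genes that clear prostaglandins, Hpgd stood lower with LNP-CRISPR in 3 classes. Hpgd, the dehydrogenase that inactivates prostaglandins, was 49.7 and 14.5 CPM in macrophage- or monocyte-like cells (0.292, 0.202–0.414), from 147 and 42 UMIs. In satellite- or myogenic-like kit cells it was 3.65 and 1.01 CPM (0.276, 0.169–0.439), and in FAP-like cells 4.81 and 3.06 CPM (0.637, 0.441–0.908). Hpgd was the 1 gene past 2-fold of 4 measured from the transport and breakdown list in macrophages and of 5 in myogenic cells. The uptake carrier Slco2a1 was 115 and 71.7 CPM in FAP-like cells (0.622, 0.579–0.669), where 0 of 5 genes of that list passed 2-fold. All 5 of 5 were below 1, in a class where 5387 of all 13714 measured genes were above 1. In kit pericyte- or smooth muscle-like cells Slco2a1 was 2.01 and 4.89 CPM from 5 and 27 UMIs (2.43, 0.924–8.09). The median log2 ratios of the list were -0.15, -0.40 and -0.04 in FAP-like, macrophage- or monocyte-like and satellite- or myogenic-like cells, beside -0.05, -0.03 and -0.02 for all genes.

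Among other prostanoid receptors, the prostacyclin receptor Ptgir was 25.3 CPM (63 UMIs) and 64.1 CPM (354 UMIs) in kit pericyte- or smooth muscle-like cells (2.53, 1.93–3.37), the 1 gene of 3 measured past 2-fold there. The make-up of this class differed between the kit libraries. At finer clustering, cluster 8 (led by Apold1 and Procr) held 39 vehicle and 171 LNP-CRISPR cells, and cluster 5 (led by Pln and Myh11) held 102 and 131. Ptgir was 49.3 CPM (33.7–69.6) and 87.6 CPM (77.4–98.7) in cluster 8, and 15.7 CPM (10.2–23) and 35.1 CPM (28–43.5) in cluster 5. Fibre markers in the class summed to 1191 and 630 CPM (0 of 8 higher) and satellite cell markers to 73.5 and 22.6 CPM (3 of 8 higher), and their part in the ratio was not tested. Of all genes measured in the class, 3943 of 10052 were higher. In FAP-like cells Ptger1 was 1.60 and 0.733 CPM (0.457, 0.210–0.918), the 1 of 4 past 2-fold, and Ptgir was 23.9 and 20.3 CPM. In the leukotriene branch, Alox5ap, the activator of 5-lipoxygenase, was 1.51 and 3.73 CPM in FAP-like cells (2.46, 1.58–3.89), against 568 and 553 CPM in macrophage- or monocyte-like cells (0.973, 0.908–1.04). It was the 1 of 4 measured genes past 2-fold in FAP-like cells. Whether a level this low is expression by FAP-like cells was not tested.

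Genes that respond to cyclic AMP, the messenger of Ptger2 and Ptger4, showed no direction shared by all classes. In FAP-like cells 8 of 8 were measured, 5 above and 3 below 1, with 0 past 2-fold and a median log2 ratio of 0.02. Of all genes measured there, 5387 of 13714 were above 1, with a median of -0.05. Nr4a1, the most abundant, was 328 and 294 CPM (0.897, 0.864–0.931), and the phosphodiesterase Pde4b was 61.6 and 104 CPM (1.69, 1.57–1.82). In tenocyte-like cells Nr4a2, an immediate early nuclear receptor, was 130 and 59.3 CPM (0.455, 0.370–0.559), the 1 of 8 past 2-fold. Only 2 of the 8 were above 1 there, beside 4435 of 9691 genes. In fibre-like barcodes the kinase gene Sik1 was 9.50 and 29.8 CPM from 13 and 30 UMIs (3.14, 1.59–6.55), the 1 of 5 measured. There 12.8% of all genes were at least 2-fold higher and 1.44% lower. In these barcodes 5 of 5 were above 1, beside 3492 of 5216 genes, with a median log2 ratio of 0.44 beside 0.21.

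Over the 27 points of cell class and library with at least 20 cells, each member was set beside the genes whose log2(CPM + 1) followed it most closely. These correlations describe the classes, since points of 1 library share its depth and its free RNA. Ptgs2 was most like Kctd12 (Pearson r = 0.91), Pxk (0.90) and Tgfbi (0.89). Ptges was most like Dkk2, Mst1r (both 0.90) and Arsi (0.89), and Ptgis like Adgrg2, Fat4 (both 0.94) and Aebp1 (0.93). For Ptgds the nearest were Chrng (0.98), the fetal subunit of the muscle acetylcholine receptor, and the myoblast fusion genes Mymx (0.97) and Mymk (0.95). Ptger4 was nearest to Sh3bp1 (0.92), Sh3bgrl3 and Apbb1ip (both 0.87), Ptgfr to Wnt5a (0.95), Ccbe1 and Dchs1 (both 0.94), and Ptgs1 to Ccl8 (0.89), Serpinb2 (0.82) and Hgf (0.78). With 173 UMIs, Ptger2 was below the 200 required for this comparison.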

How the data were processed

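RNA of single cells was captured by 10x Chromium 3' v3.1 kits, per the labels. The authors deposited UMI counts for each barcode, not normalized. Cell Ranger 7.0.1 with mm10 is given by the submitters' processing notes, and cellranger 5.0.1 by the file headers. The members and gene lists were chosen with earlier results of these data known. Of 47 pathway symbols 46 were matched.

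The filter asked for 200 genes or more and no more than 20% mitochondrial UMIs (838 barcodes failed). Scrublet in scanpy 1.11.5 called 23 doublets, below 0.5% in each library, so most doublets are taken to remain in the data. Cells of all libraries were clustered together on 2000 variable genes without the pathway genes and Cas9, with 30 components, 15 neighbours and Leiden resolution 1.0. Naming a cluster took 3 or more markers, each seen in 10% of its cells and enriched by 1 or more on the log2 scale, which left 314 cells unnamed. Levels needed 20 cells. Class ratios needed 50 cells in each library and 20 UMIs over both, and ratios given with their cell numbers did not. Ratios have exact conditional binomial 95% intervals and shares exact binomial ones. A count of 0 allows up to 3 counts. Thinning to 1000 UMIs left out shallower cells, for example 4 and 19 bulk FAP-like cells. All 8 members are named. Of the other lists, the genes with the most UMIs and those at least 2-fold apart with at least 30 UMIs were to be named, and Pla2g2d, Hpgds, Tbxas1 and Pde4b were added after their values were seen. The ratio step was tested on data simulated with counting noise only. That simulation does not hold the uneven spread of UMIs over cells, so it does not test the ratios against it. Free RNA was not removed, and 1 library per group gives no replicate error.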

Additional observations from a re-analysis of the deposited data

Results flagged for a closer look

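The ratio of Ptgs2 between LNP-CRISPR and vehicle in tenocyte-like cells went in opposite directions in the isolations, at 1.41 in bulk and 0.440 in the kit libraries. The difference between these ratios was not tested, because each rests on 1 library per group. A single vehicle kit cell held 58 of the 129 UMIs there, and without it the vehicle kit level was 233 CPM in place of 378 CPM, still above the 167 CPM of LNP-CRISPR kit. The kit values came from 24 and 37 cells. Most of these were in cluster 15, whose own kit ratio was 0.451 and whose bulk ratio was 1.21 with an interval that includes 1 (0.941–1.55).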

How the results depend on the processing

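No paired analysis was possible because each group holds 1 library, and no replicate could be left out. The 26 member ratios were recomputed 265 times in all under other filters, doublets kept, finer clustering, naming by cell score, pathway genes kept, other scaling, equal weights, thinning, no highest cell or fewer clusters or cells. Of these values 232 stayed within the counting interval of the reported ratio, 29 left it and 4 turned the direction of a ratio past 2-fold. Over all 265, 22 lay on the other side of 1 from the reported ratio and 15 had moved by over 1.5 times. With cells thinned to 1000 UMIs, Ptgs2 stood at 1.27 in FAP-like and 1.68 in macrophage- or monocyte-like cells, and in FAP-like cells Ptges was 1.88, Ptgis 0.359, Ptgs1 1.24 and Ptgfr 1.19. Thinning also moved Ptgis in tenocyte-like cells to 0.885 and Ptgds in satellite- or myogenic-like cells to 0.992. With cells weighted equally, Ptgs2 in FAP-like cells was 1.35, Ptgis in tenocyte-like cells 0.931, Ptgds in satellite- or myogenic-like cells 1.13 and Ptger4 in dendritic-like cells 0.780. The turned ratios were Ptges in tenocyte-like cells (1.05 weighted equally, 1.5 thinned) and Ptgs2 in kit pericyte- or smooth muscle-like cells (0.428 and 0.466). Choices made after seeing the data gave, without cluster 3 of the FAP-like cells, 1.49 for Ptgs2, 0.899 for Ptges and 1.12 for Ptgis. Without cluster 24 Ptgds was 1.04. Ptgs2 in macrophage- or monocyte-like cells was 2.22 without S100a8 and S100a9 and 2.07 without the highest cell. The number of members past the fold became 2 in FAP-like, 1 in macrophage- or monocyte-like and 2 in satellite- or myogenic-like cells at 1.5-fold. It became 1 in FAP-like cells after thinning, 1 in macrophage- or monocyte-like cells without the highest cell and 1 in satellite- or myogenic-like cells at resolution 2.0. It fell to 0 in dendritic-like cells (at least 50 UMIs, cell score, thinning, no highest cell), where Ptger2 no longer reached the minimum number of UMIs although its ratio was 4.63 by cell score and 3.76 without the highest cell, in tenocyte-like cells (at least 50 UMIs, at least 500 genes, equal weights, thinning) and in pericyte- or smooth muscle-like cells (stricter filter). The causes of these shifts were not tested. Of 420 recomputed levels 341 stayed within the counting interval. Depth limits Ptger2, Ptgs1 and every member in kit glial-like and fibre-like barcodes.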

Other observations

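Cas9 RNA was counted beside the members in the LNP-CRISPR libraries, and the cells with at least 4 Cas9 UMIs were set beside those with none, a limit chosen after the counts had been seen. In bulk FAP-like cells Ptgs2 was 1245 CPM in the 296 cells with Cas9 and 1729 CPM in the 62 cells without, a ratio of 0.720 (0.686–0.757). For Ptgis the values were 21.8 and 65.2 CPM (0.335, 0.255–0.444), and for Ptges 64.5 and 38.2 CPM (1.69, 1.23–2.38). Median depth was 29581 UMIs with Cas9 and 11385 without, so the groups of cells differ in depth and its part in these ratios was not tested. In macrophage- or monocyte-like cells Ptgs2 was 562 CPM in 78 cells with Cas9 and 792 CPM in 56 without (0.710, 0.635–0.793), and Ptger4 was 44.8 and 15.9 CPM (2.82, 1.47–5.94). Bulk tenocyte-like cells went the other way from FAP-like cells for Ptgis, at 1.48 (1.10–2.03) from 48 cells with Cas9 and 16 without. Their Ptgs2 ratio was 1.10 (0.707–1.78), with an interval that includes 1. Median depths there were 23740 and 7929 UMIs. The Ptgis ratio in satellite- or myogenic-like kit cells was 0.810 (0.551–1.16). Satellite- or myogenic-like kit cells had 42.2 CPM of Ptgds in 94 cells with Cas9 and 31.8 CPM in 365 without (1.32, 1.12–1.57), at median depths of 45452 and 22944 UMIs.

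The unnamed cluster 6 of the kit libraries, shallow barcodes with cell cycle and embryonic muscle genes such as Birc5, Myl4 and Tnnt2, held 2 Ptgds UMIs in 132 vehicle cells (9.62 CPM) and 20 in 160 LNP-CRISPR cells (88.0 CPM).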
